A study of Mus musculus with 4 samples.

Results

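The forkhead genes Foxa1, Foxa2, Foxa3, Foxp1, Foxp2 and Foxp4 are 6 of the 21757 protein-coding genes in the annotation. They were examined in H3K27ac ChIP-seq peak lists of sorted cells from fetal mouse limbs and trunks. H3K27ac, acetylation of histone H3 at lysine 27, marks active promoters and enhancers. All peak intervals within the gene body, or within 150 kb of the main start site, of each gene were taken, which gave 96 of 40899 intervals in limb EGFP+ cells, 42 of 34360 in limb EGFP- cells, 75 of 36231 in trunk EGFP+ cells and 50 of 30716 in trunk EGFP- cells. The 4 cell populations came from fetuses of stage E14.5 that carried a Col2a1-EGFP regulatory sensor, an EGFP cassette with a minimal promoter placed upstream of Col2a1, the gene of the main cartilage collagen. All fetuses derived from 1 engineered embryonic stem cell line by tetraploid aggregation, so the EGFP- cells carried the same allele as the EGFP+ cells. Limbs, or trunks from neck to tail without the internal organs, were pooled, dissociated and sorted by EGFP, with butyrate, an inhibitor of histone deacetylases, present before fixation. There was 1 library for each population, so no difference between populations has a replicate check, and tissue and sequencing lane cannot be told apart because each tissue was run on its own lane.

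The FoxA proteins bind compacted chromatin through a winged-helix domain and open it for other factors. They are best known from endoderm, notochord and floor plate, and Foxa2 and Foxa3 also act in the hypertrophic programme of cartilage. The FoxP proteins are forkhead repressors that act as homodimers and heterodimers through a leucine zipper. Foxp1, Foxp2 and Foxp4 are known from the perichondrium, where they restrain Runx2 and the switch from cartilage to bone, and from motor neurons, lung and brain.

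The sequences below carry the results that follow and come from the GRCm39 genome. Capitals mark the forkhead core TGTTTAC or letters that SOX factors bind, which were searched as AACAAT and also as ACAAAG, each on both strands. A sequence without capitals holds none of them. The first is a 30-base stretch upstream of the Foxa1 start site (chr12:57593020-57593049, shown on the minus strand, that of the gene), with the forkhead core alone in capitals. All other sequences are given on the plus strand. For Foxa2, the strongest distal interval of trunk EGFP+ cells (chr2:147910025-147910304) and a stretch of the strongest of limb EGFP+ cells (chr2:148012987-148013286) are shown because EGFP- cells had none. For Foxa3, the interval upstream of its start site in limb EGFP+ cells (chr7:18757803-18758057) is shown. For Foxp1, 2 intronic stretches are shown, the region of EGFP- cells of both tissues (chr6:98926908-98927207) and the strongest distal interval with a forkhead core in trunk EGFP+ cells (chr6:98948668-98948967). For Foxp2 and Foxp4 the strongest distal intervals are shown (chr6:14898402-14898701 and chr17:48287292-48287591).
Foxa1 upstream of the start site: tatactgctttGTAAACAaagtgagggcca
Foxa2 at -21.2 kb, trunk EGFP+: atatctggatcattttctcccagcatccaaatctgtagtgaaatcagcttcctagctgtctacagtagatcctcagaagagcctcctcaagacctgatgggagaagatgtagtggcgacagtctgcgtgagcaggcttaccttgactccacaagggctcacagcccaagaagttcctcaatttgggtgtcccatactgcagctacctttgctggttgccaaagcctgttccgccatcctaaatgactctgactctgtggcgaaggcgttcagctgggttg
Foxa2 at -124 kb, limb EGFP+: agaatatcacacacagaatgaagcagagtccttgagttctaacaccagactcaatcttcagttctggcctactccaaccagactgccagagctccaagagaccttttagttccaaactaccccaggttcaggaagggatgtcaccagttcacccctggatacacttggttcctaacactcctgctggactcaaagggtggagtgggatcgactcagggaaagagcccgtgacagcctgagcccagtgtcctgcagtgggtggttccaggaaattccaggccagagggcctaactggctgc
Foxa3 at -0.49 kb, limb EGFP+: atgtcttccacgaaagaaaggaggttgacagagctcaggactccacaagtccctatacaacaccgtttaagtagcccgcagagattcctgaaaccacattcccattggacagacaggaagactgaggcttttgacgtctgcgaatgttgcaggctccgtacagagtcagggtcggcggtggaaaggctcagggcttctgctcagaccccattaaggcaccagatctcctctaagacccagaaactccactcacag
Foxp1 at 78.2 kb, EGFP- of both tissues: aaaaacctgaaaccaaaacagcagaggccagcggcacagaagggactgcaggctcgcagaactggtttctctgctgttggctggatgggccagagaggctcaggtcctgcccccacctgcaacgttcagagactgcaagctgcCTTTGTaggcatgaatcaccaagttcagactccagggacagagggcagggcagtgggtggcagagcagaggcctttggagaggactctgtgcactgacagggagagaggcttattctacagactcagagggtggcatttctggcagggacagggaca
Foxp1 at 56.4 kb, trunk EGFP+: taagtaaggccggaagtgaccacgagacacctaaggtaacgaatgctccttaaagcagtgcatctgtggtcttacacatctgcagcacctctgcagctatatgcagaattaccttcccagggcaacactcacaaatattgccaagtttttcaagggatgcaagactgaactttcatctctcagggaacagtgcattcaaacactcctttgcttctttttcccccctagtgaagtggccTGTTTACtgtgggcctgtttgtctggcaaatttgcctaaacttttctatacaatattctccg
Foxp2 at -2.73 kb, limb EGFP+: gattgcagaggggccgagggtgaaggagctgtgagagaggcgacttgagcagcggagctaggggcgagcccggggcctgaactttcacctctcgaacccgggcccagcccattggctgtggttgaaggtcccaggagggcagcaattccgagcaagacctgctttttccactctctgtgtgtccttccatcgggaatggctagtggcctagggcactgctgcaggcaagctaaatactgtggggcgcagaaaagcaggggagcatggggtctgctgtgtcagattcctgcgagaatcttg
Foxp4 at -51.7 kb, limb EGFP+: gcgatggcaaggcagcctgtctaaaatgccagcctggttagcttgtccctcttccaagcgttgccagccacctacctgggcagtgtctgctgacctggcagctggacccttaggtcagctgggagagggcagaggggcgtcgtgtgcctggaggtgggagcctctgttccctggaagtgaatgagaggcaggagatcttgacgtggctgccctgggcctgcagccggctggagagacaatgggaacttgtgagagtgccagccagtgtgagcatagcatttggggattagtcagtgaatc

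Distances here and below are from the main start site to the summit, in the direction of transcription, and are negative upstream. For each interval the −log10 p of its strongest summit, the number of reads at that summit and its place in its own list are given, where "upper 5%" would mean that 5% of the list's intervals had as high or a higher −log10 p. Intervals in parentheses after read numbers are exact Poisson intervals at the 95% level and cover counting error only. The authors sampled a similar number of reads from each library, but before trimming, mapping and filtering. The numbers left for peak calling are not known here, so reads are set side by side between lists without a correction for them. The populations were checked with cell type markers. Of 7 chondrocyte markers, 7 had a promoter interval in limb EGFP+ and 7 in trunk EGFP+ cells, against 2 in limb EGFP- and 1 in trunk EGFP- cells. No promoter of the 3 epithelial or the 3 endothelial and blood markers had an interval in any list. Of 3 skeletal muscle markers 1 had one in limb EGFP+ cells, of 3 connective tissue markers 1 in each EGFP+ list and 2 in each EGFP- list, and of 3 neuronal markers 1 in each EGFP+ list. The part of cell mixture in the results below was not tested, and fewer cells that carry the mark cannot be told apart from less of the mark per cell. A gene without an interval is one where no peak was listed, which sets no upper limit on its acetylation.

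Foxa1, on chromosome 12, was the one member without any H3K27ac interval. No list held an interval at its promoter or anywhere in its window of 300 kb. The main promoter window reached 2 kb upstream and 500 bp downstream, and it was empty in all lists for 44.1% of protein-coding genes, and 16.2% of genes had no distal interval in any list. Foxa1 was also the one member with a forkhead core in the 250 bp upstream of its start site, which 2.72% of all genes had. The core spans bases 94 to 88 upstream of the start site, and in the sequence printed above it overlaps the SOX letters ACAAAG on its right and their complement CTTTGT on its left.

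Foxa2, which directs notochord, floor plate and endoderm, had intervals only in EGFP+ cells of the 4 lists. Its promoter on chromosome 2 had none in any list, and the window of 300 kb held 3 distal intervals in limb EGFP+, 2 in trunk EGFP+ and 0 in either EGFP- list. The strongest in limb EGFP+ cells lay at -124 kb (chr2:148012987-148013573) with a −log10 p of 10.5 and 21 reads (13.0 to 32.1), in the upper 49.1% of its list. The other 2 lay at -135 and -136 kb with 17 and 19 reads. In trunk EGFP+ cells the 2 intervals lay at -21.2 kb (chr2:147910025-147910304), with a −log10 p of 9.10 and 17 reads (9.90 to 27.2), and at -21.7 kb with 15 reads. All 5 were intergenic with no other protein-coding start site in the window, and no limb interval overlapped a trunk interval. They were of middle or lower rank, between the upper 49.1% and the upper 79.2% of their lists, and 48.5% of all genes had at least 3 distal intervals in limb EGFP+ cells and 57.3% at least 2 in trunk EGFP+ cells. More distal intervals in EGFP+ than EGFP- cells were found for 40.7% of all genes in the limb and 41.3% in the trunk.

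Foxa3, the third FoxA gene, lies on chromosome 7 with 16 other protein-coding genes in its window, and most of the acetylation there was at their promoters. Promoters of these genes held 16, 14, 11 and 15 intervals in limb EGFP+, limb EGFP-, trunk EGFP+ and trunk EGFP- cells. The main promoter window of Foxa3 had an interval in every list, as had 44.6% of all genes, but that window also spans the start site of Sympk, which is transcribed the other way. The interval common to the 4 lists lay within an intron of Sympk, between -1.22 and -1.39 kb, with 100 reads in limb EGFP+, 62 in limb EGFP-, 83 in trunk EGFP+ and 62 in trunk EGFP- cells. It ranked in the upper 2.74% to 7.65% of the lists.

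Nearer to the Foxa3 start site there were intervals in EGFP+ cells alone. In limb EGFP+ cells one lay at 0.17 kb in an exon of Foxa3 with 32 reads (21.9 to 45.2) and a −log10 p of 6.89, and one at -0.49 kb (chr7:18757803-18758057) with 34 reads (23.5 to 47.5) and a −log10 p of 7.90. The trunk EGFP+ list held 1 interval at 0.176 kb with 41 reads (29.4 to 55.6) and a −log10 p of 12.5. None of the 3 was overlapped by an interval of the EGFP- fraction. They ranked between the upper 39.1% and the upper 70.7% of their lists. All 3 also lay in the promoter window of Sympk. In limb EGFP+ cells the fold was 2.67 at 0.17 kb and 2.85 at -0.49 kb, each on a local background of 11.3 reads. In trunk EGFP+ cells it was 3.6 on 10.7 reads. The share of all promoter intervals without an interval of the opposite fraction was not counted.

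Distal intervals of the Foxa3 window numbered 6 in limb EGFP+, 3 in limb EGFP-, 4 in trunk EGFP+ and 7 in trunk EGFP- cells, so that EGFP+ exceeded EGFP- in the limb and not in the trunk. The strongest lay at -53.2 kb in an exon of Dmwd (chr7:18810500-18811578) and was in every list, with 85, 70, 59 and 49 reads in limb EGFP+, limb EGFP-, trunk EGFP+ and trunk EGFP- cells. The next, at -71.9 kb over exons of Six5 and Gm72262 (chr7:18829094-18830445), was also in every list, with a −log10 p of 27.3, 12.8, 15.5 and 19.8 in the same order. The third, downstream of the gene at 10.8 kb (chr7:18746260-18746852), was in limb EGFP+ cells with 54 reads (40.6 to 70.5) and in trunk EGFP- cells with 15 reads (8.40 to 24.7). The local backgrounds there were 13.6 and 3.14 reads. The folds, which add a read to both the pileup and the background, were close, at 3.77 and 3.86.

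**Figure D1:**
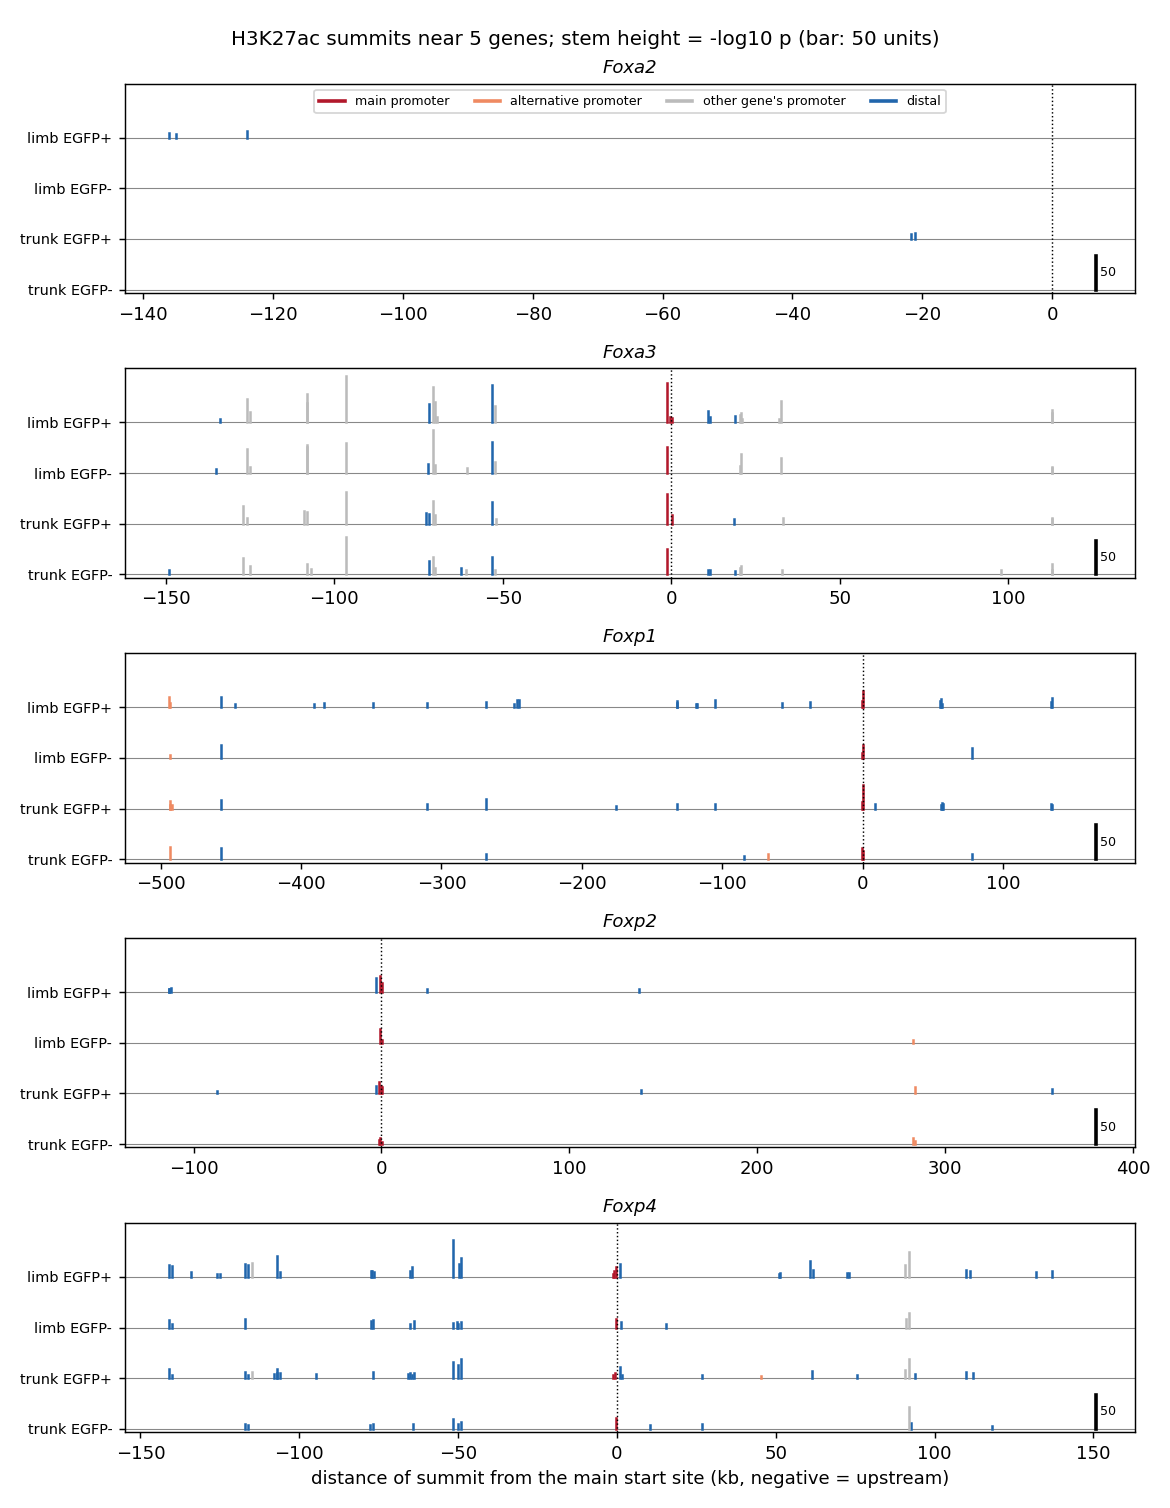
Summits near 5 of the genes (Foxa1 had none), by distance from the main start site in kb, with 1 lane for each list and stem height as −log10 p, coloured by class. The EGFP- lanes of Foxa2 are empty, Foxa3 is crowded by promoters of other genes, and the EGFP+ lanes of Foxp1 and Foxp4 hold more distal stems than the EGFP- lanes.

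The 3 Foxp genes had acetylated main promoters in every list, against 51.7% of all genes in limb EGFP+, 48.8% in limb EGFP-, 49.7% in trunk EGFP+ and 49.9% in trunk EGFP- cells. Over the 6 members, 4 had a main promoter interval in each list. At the Foxp1 promoter on chromosome 6 the strongest interval held 42 reads (30.3 to 56.8) in limb EGFP+, 45 (32.8 to 60.2) in limb EGFP-, 60 (45.8 to 77.2) in trunk EGFP+ and 42 (30.3 to 56.8) in trunk EGFP- cells. These 4 counting intervals overlap. Within the lists the trunk EGFP+ interval stood highest, in the upper 7.68%, and the others between the upper 24.4% and the upper 29.8%. The strongest interval of trunk EGFP- cells lay at -0.437 kb, apart from those of the other lists at 0.26 to 0.294 kb. Near the latter, trunk EGFP- cells had an interval at 0.244 kb with 35 reads (24.4 to 48.7), in the upper 41.0%. The fold at the summits from 0.244 to 0.294 kb was higher in EGFP+ cells of both tissues. It was 6.68 and 5.02 for limb EGFP+ and EGFP-, and 7.76 and 3.99 for trunk. The local background there was 5.44 and 8.16 reads for limb, and 6.86 and 8.02 for trunk. At the summits upstream of the start site the fold was 3.83 and 3.17 for limb, but 3.8 and 4.74 for trunk.

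The Foxp2 promoter, also on chromosome 6, had more reads in EGFP+ cells. Its strongest interval held 88 reads (70.6 to 108) in limb EGFP+ and 47 (34.5 to 62.5) in limb EGFP- cells. In the trunk it held 62 (47.5 to 79.5) in EGFP+ and 26 (17.0 to 38.1) in EGFP- cells. In neither tissue do the counting intervals of the fractions overlap. The local background, which MACS2 takes from that library, was also higher in EGFP+ cells, at 24.3 reads in limb and 17.5 in trunk against 8.40 and 6.66 in EGFP- cells. The fold at the strongest summit was not higher in EGFP+ cells, with 3.51 and 5.11 for limb EGFP+ and EGFP-, and 3.41 and 3.52 for trunk. The trunk summits differed, at -1.13 kb in EGFP+ and -0.69 kb in EGFP- cells. At -1.09 kb trunk EGFP- cells had a fold of 2.93. Downstream of the start site, between 0.342 and 0.542 kb, the fold was higher in EGFP+ cells. It was 2.74 and 2.42 for limb EGFP+ and EGFP-, and 2.66 and 2.33 for trunk. At the Foxp4 promoter on chromosome 17 the strongest interval held 55 reads (41.4 to 71.6) in limb EGFP+, 33 (22.7 to 46.3) in limb EGFP-, 38 (26.9 to 52.2) in trunk EGFP+ and 36 (25.2 to 49.8) in trunk EGFP- cells, with overlapping counting intervals. Its fold was lower in EGFP+ cells, with 3.51 and 4.39 for limb EGFP+ and EGFP-, and 2.72 and 4.97 for trunk. The local background was higher in EGFP+ cells, at 15.0 and 6.74 reads for limb, and 13.4 and 6.44 for trunk. The summits differed, at -0.415 and -0.499 kb in limb and trunk EGFP+ cells, and -0.206 and -0.212 kb in EGFP- cells. The interval overlaps exons of the non-coding genes Gm65564 and Gm65576.

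**Figure D2:**
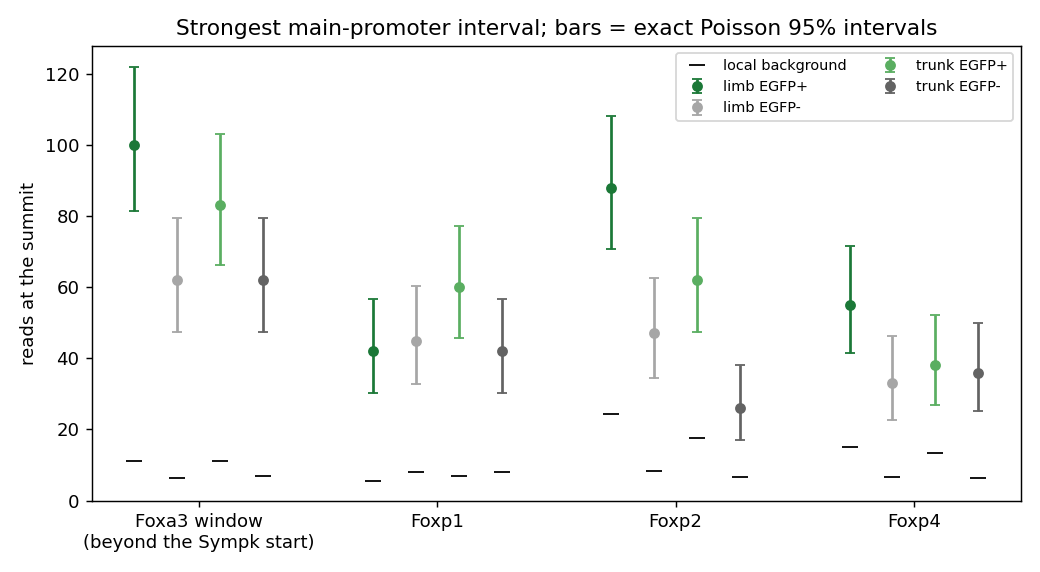
Reads at the summit of the strongest main promoter interval for the 4 genes that had one, with exact Poisson intervals at the 95% level and the local background as black marks. The Foxp2 summits of EGFP+ cells sit above those of EGFP- cells in both tissues and on a higher background, 24.3 and 17.5 reads against 8.40 and 6.66.

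Alternative start sites differed more between lists than the main ones. Foxp1 has 38 annotated protein-coding start sites, and the far upstream promoter, near -493 kb, had its strongest interval in trunk EGFP- cells with 49 reads (36.3 to 64.8) and a −log10 p of 18.4. It was at 14.9 and 45 reads (32.8 to 60.2) in limb EGFP+ cells and at 11 and 36 reads (25.2 to 49.8) in trunk EGFP+ cells. In limb EGFP- cells there was 1 weak interval close by, with a −log10 p of 4.52 and 24 reads (15.4 to 35.7). A further start site at -67.7 kb had an interval in trunk EGFP- cells alone, with 22 reads (13.8 to 33.3) and a forkhead core within 150 bp of the summit. The internal start sites of Foxp2, at 283 and 284 kb, had 2 intervals in the trunk EGFP- list and 1 each in the trunk EGFP+ and limb EGFP- lists, with 10 to 27 reads, and none in limb EGFP+ cells. Foxp4 had 1 weak alternative promoter interval, at 45.2 kb in trunk EGFP+ cells, with 17 reads (9.90 to 27.2).

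Distal intervals separated the Foxp genes from each other and the EGFP+ from the EGFP- lists. The median over all protein-coding genes was 2 distal intervals in each list. Foxp1 had 22 in limb EGFP+, 2 in limb EGFP-, 12 in trunk EGFP+ and 4 in trunk EGFP- cells, in a window of 644 kb. Foxp2 had 6, 0, 4 and 0 in a window of 691 kb. Foxp4 had 28, 13, 25 and 12 in a window of 300 kb. EGFP+ exceeded EGFP- in both tissues for each of the 3 genes. Over the 6 members, 5 had more in EGFP+ than EGFP- cells in the limb, as had 40.7% of all genes. In the trunk 4 members had more, as had 41.3% of all genes. More in limb EGFP+ than in trunk EGFP+ cells were found for 5 members and for 37.5% of all genes. The EGFP+ lists also held more distal intervals in all. These numbered 22833 and 17768 in limb EGFP+ and EGFP-, and 19295 and 14231 in trunk. Per 100 kb of window, limb EGFP+ cells had 9.33 for Foxp4, 3.41 for Foxp1 and 0.869 for Foxp2, and trunk EGFP+ cells 8.33, 1.86 and 0.579. Of all genes, 0.156% had as many distal intervals as Foxp4 in limb EGFP+ and 0.142% in trunk EGFP+ cells, and 2.22% and 1.74% in limb and trunk EGFP- cells. For Foxp1 that share was 0.533% in limb EGFP+ and 4.30% in trunk EGFP+ cells, against 56.9% in limb EGFP- and 27.8% in trunk EGFP- cells. Windows differ in length between genes, since the gene body is included.

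**Figure D3:**
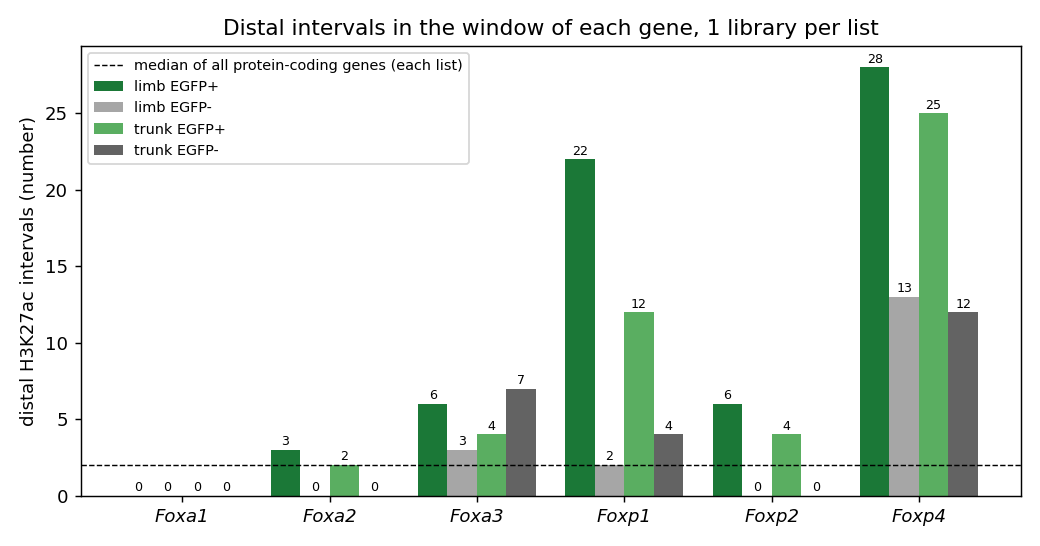
Number of distal intervals in the window of each gene, with 1 bar for each list and the median of 2 over all protein-coding genes as a dashed line. Foxp4 has 28 and 25 and Foxp1 22 and 12 in limb and trunk EGFP+ cells, all above their EGFP- counts, while Foxa1 has none.

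Foxp1 carried many weak to moderate intervals spread through its introns. Where intervals of different lists overlapped they were merged, which gave 27 distal regions, of which 14 were of limb EGFP+ cells alone, 6 of EGFP+ cells of both tissues alone and 3 of trunk EGFP+ cells alone. The region common to all lists lay at -457 kb over exons of the non-coding genes Gm55375, listed as a miRNA, and Gm67732 (chr6:99461662-99463164), with 33 reads in limb EGFP+, 39 in limb EGFP-, 28 in trunk EGFP+ and 38 in trunk EGFP- cells. The second in strength, at -268 kb in an intron (chr6:99272469-99273397), had a −log10 p of 8.55 in limb EGFP+, 14.7 in trunk EGFP+ and 7.39 in trunk EGFP- cells and was not listed in limb EGFP- cells.

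A single Foxp1 region was found in EGFP- cells of both tissues alone. It lay at 78.2 kb, in an intron (chr6:98926842-98927372), with 31 reads (21.1 to 44.0) and a −log10 p of 14.6 in limb EGFP- and 26 reads (17.0 to 38.1) and 8.14 in trunk EGFP- cells. The strongest regions of EGFP+ cells of both tissues alone were of a −log10 p up to 13.3. One lay downstream of the gene at 135 kb (chr6:98869670-98870287), with a −log10 p of 13.3 and 24 reads (15.4 to 35.7) in limb EGFP+ and 5.26 and 14 reads (7.65 to 23.5) in trunk EGFP+ cells. The other lay in an intron at 56.0 kb (chr6:98948607-98949396), with 12.4 and 32 reads (21.9 to 45.2) and 7.79 and 25 reads (16.2 to 36.9). The trunk interval of the latter holds the forkhead core printed above at 56.4 kb.

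Foxp2 had few distal intervals, all in EGFP+ cells, and the strongest was next to its promoter. At -2.73 kb, just beyond the promoter window (chr6:14898381-14899011), limb EGFP+ cells had 81 reads (64.3 to 101) and a −log10 p of 20.2, and trunk EGFP+ cells 52 reads (38.8 to 68.2) and 11.4. Neither EGFP- list had an interval there. The local background was 23.6 reads in limb EGFP+ and 17.2 in trunk EGFP+ cells, so the folds were 3.33 and 2.91. The next were at 357 kb in an intron (chr6:15257819-15258058), in trunk EGFP+ cells alone with 16 reads (9.15 to 26.0), and at -112 kb (chr6:14789202-14789540), in limb EGFP+ cells alone with 13 reads (6.92 to 22.2). All 8 distal intervals other than those at -2.73 kb had 7 to 16 reads.

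Foxp4 held both the largest number of distal intervals and the strongest one among the Foxp genes. At -51.7 kb, over an exon of the non-coding gene Gm29938 (chr17:48287130-48287891), limb EGFP+ cells had 117 reads (96.8 to 140) and a −log10 p of 54.2, in the upper 3.97% of the list. Trunk EGFP+ cells had 68 reads (52.8 to 86.2), trunk EGFP- cells 31 (21.1 to 44.0) and limb EGFP- cells 22 (13.8 to 33.3). The counting interval of limb EGFP+ cells does not overlap those of the other 3 lists, nor does that of trunk EGFP+ cells overlap those of the EGFP- lists. The local background was higher in EGFP+ cells too, at 18 reads in limb EGFP+ and 6.28 in limb EGFP- cells, and likewise in the trunk. The fold over it was higher in EGFP+ cells in the limb, with 6.20 and 3.16, and lower in the trunk, with 4.45 and 4.86. At -49.1 kb, in an intron of the same gene (chr17:48284524-48284994), the reads were 80 (63.4 to 99.6) in limb EGFP+ and 73 (57.2 to 91.8) in trunk EGFP+ cells against 25 (16.2 to 36.9) in each EGFP- list. There the fold was 4.39 in limb EGFP+ and 3.54 in limb EGFP-, and 4.85 in trunk EGFP+ and 4.18 in trunk EGFP- cells.

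Both remaining named regions of Foxp4 were found in EGFP+ cells of the 2 tissues alone. One, at -107 kb in an intron of the non-coding gene Gm65853 (chr17:48342188-48343484), had 59 reads (44.9 to 76.1) in limb EGFP+ and 40 (28.6 to 54.5) in trunk EGFP+ cells. The other, downstream at 60.8 kb (chr17:48173846-48175558), had 55 (41.4 to 71.6) and 36 (25.2 to 49.8). Of the 33 distal regions of Foxp4, 6 were in all lists, 5 in EGFP+ cells of both tissues alone, 9 in limb EGFP+ and 4 in trunk EGFP+ cells alone. EGFP- cells alone had 3, of which 1 was of limb and 2 were of trunk. Besides Foxp4 the window holds the start sites of Mdfi and 1700122O11Rik, so a distal interval is near these genes too.

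Over the 3 Foxp genes, 69 distal regions were found and sorted by the lists that held them. Regions of limb EGFP+ cells alone made up 40.6% of them, against 21.8% of the 42651 distal regions of the whole series. Regions of EGFP+ cells of both tissues alone made up 17.4% against 10.8%. Regions of trunk EGFP+ cells alone were 10 of the 69, against 14.6%. Regions of all 4 lists made up 10.1% against 8.87%, and those of 2 or 3 lists with both fractions 10.1% against 12.0%. The regions of EGFP- cells alone were the smaller share, with 1.45% against 15.8% for limb, 4.35% against 11.4% for trunk and 1.45% against 4.62% for both tissues. Counted as intervals without an overlapping interval of the opposite fraction, the Foxp genes had 42 of 56 (75%) in limb EGFP+ and 31 of 41 (75.6%) in trunk EGFP+ cells, near the 68.5% and 69.1% of all distal intervals. In EGFP- cells they had 2 of 15 (13.3%) in limb and 5 of 16 (31.2%) in trunk, below the 56.6% and 57.3% of all. Because intervals of 1 gene share their locus, these shares are descriptions with no test.

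**Figure D4:**
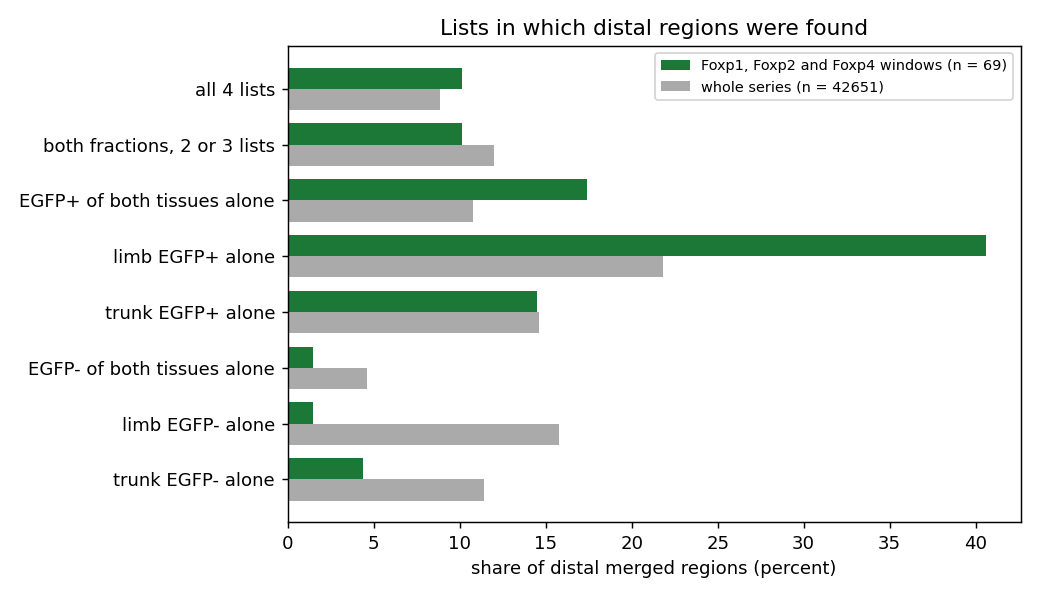
Share, in percent, of distal merged regions found in each combination of lists, for the 69 regions of the Foxp windows and the 42651 regions of the whole series. Limb EGFP+ cells alone take 40.6% of the Foxp regions against 21.8%, and limb EGFP- cells alone 1.45% against 15.8%.

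Within the lists, most distal intervals of the members were of middle rank, as distal intervals were in general. Their median was the upper 59.1% in limb EGFP+, 53.8% in limb EGFP-, 63.6% in trunk EGFP+ and 64.3% in trunk EGFP- cells, against 67.2%, 68.8%, 68.3% and 71.2% for all distal intervals. A strongest interval, promoter or distal, in the upper 25% was reached by 4 members in limb EGFP+ and 2 in limb EGFP- cells. In the trunk it was reached by 3 in EGFP+ and 1 in EGFP- cells. Foxa3 was among them in each list through Sympk or Dmwd. These counts hang on the cut. Foxp1 stood at the upper 24.4% in limb EGFP+, 26.5% in limb EGFP- and 27.7% in trunk EGFP- cells. Foxp2 stood at 24.6% in limb EGFP+ and 24.9% in limb EGFP- cells. The share of all genes that reach the upper 25% was not counted. Distal widths had medians of 331, 360.5, 290 and 304 bp in limb EGFP+, limb EGFP-, trunk EGFP+ and trunk EGFP- cells. The medians of all distal intervals were 331, 294, 324 and 303 bp. Intervals of at least 1 kb were few, with 4 of 65, 1 of 18, 2 of 47 and 2 of 23. In each list that was a larger share than the 4.53%, 2.61%, 3.31% and 2.34% of all, but it rests on few intervals. The widest, of 1560 bp, was the trunk EGFP+ interval of Foxp4 at 60.8 kb.

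**Figure D5:**
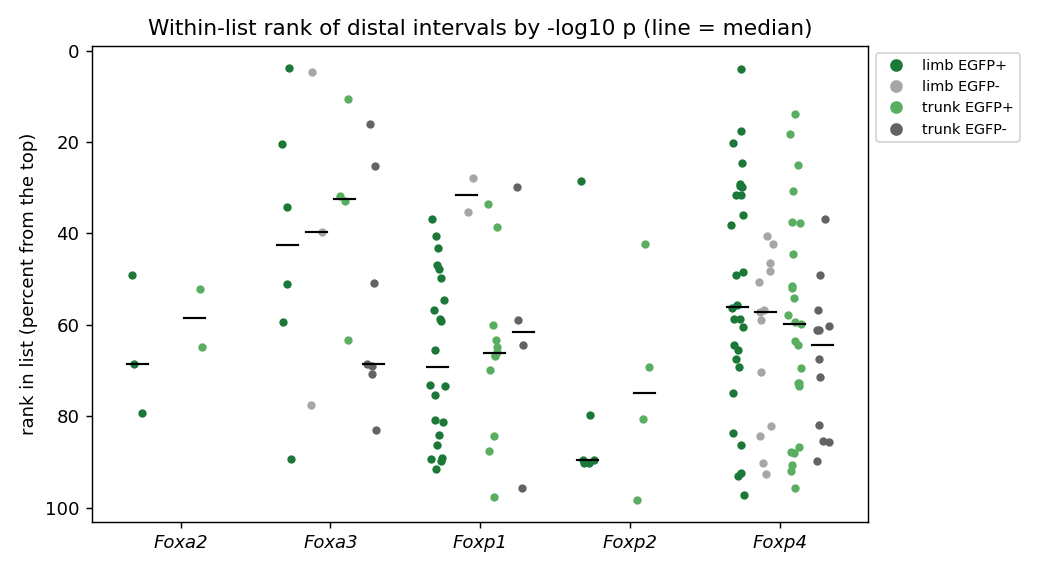
Rank of each distal interval in its own list by −log10 p, in percent from the top (strongest at the top), for the 5 genes with distal intervals, with black lines at the medians. Foxp4 reaches the upper 3.97% in limb EGFP+ and 13.8% in trunk EGFP+ cells, while no distal Foxp4 interval of the EGFP- lists lies above the upper 36.9%.

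The forkhead core TGTTTAC was sought on both strands within 150 bp of each distal summit. It was in 1 of 65 member intervals (1.54%) in limb EGFP+ and 3 of 47 (6.38%) in trunk EGFP+ cells, and in 0 of 18 and 0 of 23 in limb and trunk EGFP- cells. Of all distal intervals, 4.26%, 4.24%, 4.24% and 4.15% in limb EGFP+, trunk EGFP+, limb EGFP- and trunk EGFP- cells held it, so the members' shares rest on too few matches to be set apart from these. The 4 matches were in Foxp1 (3) and Foxp2 (1). None was in the 78 distal intervals of Foxp4, the 20 of Foxa3 or the 5 of Foxa2. A match is a description of letters and not evidence of binding.

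Genes that work with these factors were described from fixed lists. In the hypertrophic list (Sox9, Runx2, Runx3, Mef2c, Ihh, Pth1r, Col10a1, Alpl, Mmp13, Ibsp and Spp1), 5 of 11 genes had a main promoter interval in limb EGFP+ cells and 3 in each other list, with 99, 47, 77 and 25 distal intervals in limb EGFP+, limb EGFP-, trunk EGFP+ and trunk EGFP- cells. Runx3, a transcription factor of chondrocyte maturation, had 25, 7, 19 and 6, and Ihh, the signal of prehypertrophic chondrocytes, had 13, 2, 8 and 1. Not every gene of the list followed that order. Alpl had 6, 11, 10 and 5, so EGFP- exceeded EGFP+ in the limb. Col10a1 had 5, 4, 4 and 1, and Mmp13 had 0 in each list. The notochord and floor plate list (Shh, Noto, T, Chrd, Nkx2-2 and Nkx6-1) had a main promoter interval for 1 of 6 genes, Chrd in limb EGFP- cells, and 15, 10, 7 and 10 distal intervals. In the perichondrium and osteoblast list (Sox11, Sox4, Twist1, Runx2, Postn and Sp7), 5, 4, 5 and 4 of 6 genes had a main promoter interval, and distal intervals numbered 47, 24, 29 and 20. Runx2, the osteoblast and hypertrophic regulator that is in both lists, had 14, 5, 7 and 3. In the perichondrium and osteoblast list, Twist1 had 2, 4, 1 and 1, so EGFP- exceeded EGFP+ in the limb. Sox4 had 9, 5, 4 and 6, so EGFP- exceeded EGFP+ in the trunk.

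Among 7 other forkhead genes (Foxp3, Foxc1, Foxc2, Foxo1, Foxo3, Foxd1 and Foxj1), 3, 2, 4 and 3 had a main promoter interval and distal intervals numbered 54, 19, 59 and 24. Foxp3, the regulatory T cell member of the Foxp family, had no main promoter interval in any list and 2, 2, 3 and 3 distal intervals, none of them without an overlapping interval of the opposite fraction. Foxc1, a mesenchymal forkhead gene, had 13, 0, 10 and 1 distal intervals.

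The genes with the nearest pattern were sought by the Euclidean distance over 8 values, the promoter rank and the number of distal intervals in each list, leaving out genes within 300 kb. Foxa1, with 0 throughout, was tied with 3055 genes and Foxa2 with 14 genes, so none is singled out. The nearest to Foxp1 were Cog1 (0.744), Afg3l2 (0.851) and Slc38a10 (0.874), and to Foxp2 Ginm1 (0.404), Cbr1 (0.629) and Cep70 (0.70). To Foxp4 the nearest were Peds1 and Gm20431 (both 0.665), which share a window, and Igf2 (0.726), which had 21, 18, 18 and 11 distal intervals. To Foxa3 they were Zfp1 (0.291) and Eif4a3 (0.381).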

How the data were processed

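H3K27ac ChIP-seq peak lists of 4 sorted populations were analysed, with 1 library each. The authors used Seqtk to sample a similar number of reads from each library and trimmed these reads with cutadapt 1.18. They mapped them with Bowtie2 2.3.5.1 to GRCm39, filtered them with SAMtools and called peaks per library with MACS2 2.2.7.1. The sources used here name no control library and no q threshold. The deposited lists give for each summit a score, the fold (ratio) of the pileup over the local background, and the −log10 p-value and −log10 q-value. In 1 list the peak names carry another replicate number than the labels, which were followed.

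Summits of 1 start and end were joined into intervals on the main chromosomes, leaving out 222 summits elsewhere. Start sites came from GENCODE (67388 sites of 21757 genes), the main one from the canonical transcript. Distal intervals lay outside every promoter window. Summit reads were solved from the deposited fold and −log10 p, with an error of at most 0.000161 in −log10 p, and the scripts were tested on simulated data. The fold was taken with 1 read added to the pileup and to the background. It is thus below the plain ratio, more so on a low background. No condition was tested. Named regions were, for each gene, the 3 strongest distal regions and up to 2 found in one fraction of both tissues alone. Members and lists were chosen with earlier results of these data known. Python 3.11.15, pandas 2.3.3 and scipy 1.17.1 were used. Of the items these rules select, 1 forkhead gene, 1 gene of similar pattern and 1 sequence are not reported here.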

Additional observations from a re-analysis of the deposited data

Results flagged for a closer look

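The distal intervals of the Foxa3 window moved in opposite directions in the 2 tissues. EGFP+ minus EGFP- was 3 in the limb (6 against 3) and -3 in the trunk (4 against 7). With 1 library per population the difference between tissues was not tested, and 16 other genes have start sites in this window.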

How the results depend on the processing

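No paired analysis was possible because each population had 1 library and all carry the same replicate number. Counts are given as limb EGFP+, limb EGFP-, trunk EGFP+ and trunk EGFP-, and the settings on q, fold, number of intervals and reach keep fewer intervals or a shorter window. The Foxp distal counts (56, 15, 41 and 16) became 32, 10, 17 and 8 at a −log10 q of at least 5, 18, 9, 13 and 9 with each list held to its 20000 strongest intervals, 23, 7, 7 and 4 at a fold of at least 4, and 25, 4, 15 and 6 in the gene body alone. EGFP+ stayed above EGFP- in both tissues for the Foxp genes under each of these settings. The Foxp intervals without an opposite interval (42, 2, 31 and 5) became 21, 1, 11 and 1, then 11, 3, 7 and 2, then 16, 1, 3 and 0, and 23, 2, 12 and 3 in the same order of settings. The Foxa distal counts (9, 3, 6 and 7) became 6, 2, 4 and 3 at the q setting, 3, 2, 4 and 3 with 20000 intervals, 3, 1, 3 and 3 at the fold setting, 5, 2, 6 and 6 within 100 kb and 0 in each list in the gene body alone. For these genes the order of trunk EGFP+ and EGFP- changed, from 6 against 7 to 4 against 3 at the q setting and with 20000 intervals, and both were equal at the fold setting and within 100 kb. Foxa intervals without an opposite interval (6, 0, 2 and 4) became 1 in trunk EGFP+ and 1 in trunk EGFP- cells at the q setting, 1, 1 and 1 in limb EGFP+, trunk EGFP+ and trunk EGFP- cells with 20000 intervals, 2 and 2 in limb EGFP+ and trunk EGFP- cells at the fold setting, 3 in limb EGFP+ cells within 100 kb, and 0 in the gene body alone. At a fold of at least 4, 2, 4, 2 and 3 members had a promoter interval, against 4 in each list as reported, so that EGFP- exceeded EGFP+ in both tissues. The members with an interval in the upper 25% became 1 by fold and 4 by width in limb EGFP- cells, and 2 by width in trunk EGFP- cells, and the cause was not tested. Promoter windows of 1 kb on each side and both other overlap rules moved no count by over 1.5 times. With the 1 kb promoter windows, 4, 3, 4 and 3 members had a promoter interval, so the count fell in both EGFP- lists alone. Within 250 bp of the summit the share with a forkhead core was 3.08% in limb EGFP+ and 10.6% in trunk EGFP+ cells, against 1.54% and 6.38% within 150 bp, and 0 in both EGFP- lists at either distance.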
